A study of Mus musculus with 8 samples.

Results

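The miR-17 and miR-18 type paralogs outside the main miR-17-92 cluster were followed through 8 libraries of small RNA from mouse embryonic stem cells. They are 9 of the 1915 mature miRNAs counted, taken by name and cluster with earlier results of these data known. mmu-miR-106b-5p, mmu-miR-106b-3p, mmu-miR-93-5p and mmu-miR-93-3p come from the miR-106b-25 cluster, and mmu-miR-106a-5p, mmu-miR-18b-5p, mmu-miR-18b-3p, mmu-miR-20b-5p and mmu-miR-20b-3p from the miR-106a-363 cluster; the prefix for mouse is left out below. All cells were of 129/Ola background and grew in 15% serum with 100 U/mL LIF. The 4 groups of 2 libraries were the Ago2KO1-AGO1 line with doxycycline at 1 µg/mL (induced AGO1 line, A and B), the same line without doxycycline (uninduced AGO1 line, A and B), the Ago2 knockout lines Ago2KO1 and Ago2KO2 (knockout 1 and 2), and wild type E14 cells (A and B). The AGO1 line carries the Ago2 knockout together with an inducible ectopic AGO1, was kept in puromycin at 2 µg/mL, and has 1 line name on all its libraries. Whether A and B of a group were grown as separate cultures is not given, so p-values measure the spread between these libraries, which may be technical. The knockout pair is of 2 lines and each other pair of 1 line, yet the tests share 1 estimate of spread. P-values for the knockout thus do not measure the spread between lines alone. The Spearman correlation of the 2 libraries was 0.902 in the knockout and 0.973 to 0.985 in the other groups.

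A miRNA hairpin is cut from its primary transcript by Drosha and then by Dicer, which leaves a short duplex of a 5p and a 3p arm. Argonaute proteins take up one strand of it, usually the same arm of a given hairpin, and the other strand is mostly degraded. AGO2 is the Argonaute known for slicing targets, and AGO1 can also hold miRNAs on targets. Several paralogous clusters make miRNAs of the miR-17 seed, which are known for promoting cell proliferation. In mouse cells miR-93 and miR-106b repress Cdkn1a, a brake on the cell cycle, and Tgfbr2, a receptor for TGF-beta, and favour reprogramming to pluripotency.

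The 5p arms carry the relationship between these miRNAs, and are shown with those of the miR-17-92 cluster that they most resemble. All 9 miRNAs matched RefSeq mature sequences (GRCm38.p6). Capitals mark the seed, bases 2 to 8.
miR-106b-5p: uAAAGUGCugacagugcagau
miR-93-5p: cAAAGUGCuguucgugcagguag
miR-106a-5p: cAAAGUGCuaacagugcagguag
miR-20b-5p: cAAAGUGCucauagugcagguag
miR-17-5p: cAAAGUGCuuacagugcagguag
miR-20a-5p: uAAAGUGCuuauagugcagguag
miR-18b-5p: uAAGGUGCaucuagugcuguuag
miR-18a-5p: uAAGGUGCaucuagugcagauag

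Thus miR-106b-5p, miR-93-5p, miR-106a-5p and miR-20b-5p share the seed AAAGUGC with miR-17-5p and miR-20a-5p, while miR-18b-5p shares AAGGUGC with miR-18a-5p. Counted from 1 at the 5′ end, miR-106a-5p differs from miR-17-5p by 1 base (U10A), miR-20b-5p from miR-20a-5p by 2 (U1C and U10C), and miR-18b-5p from miR-18a-5p by 2 (A18U and A20U). How reads that match several miRNAs were assigned is not given in the sources used here, so the split between such near-identical pairs is uncertain. miR-93-5p differs from miR-17-5p at 4 positions and miR-106b-5p at 3.

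The hairpins are shown because the arms of miR-93, miR-20b and miR-18b did not move together. Capitals mark both mature arms, the 5p arm first.
miR-106b: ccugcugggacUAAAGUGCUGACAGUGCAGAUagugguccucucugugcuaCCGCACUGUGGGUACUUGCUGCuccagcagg
miR-93: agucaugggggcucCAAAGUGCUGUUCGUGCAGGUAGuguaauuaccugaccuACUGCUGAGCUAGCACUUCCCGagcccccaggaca
miR-18b: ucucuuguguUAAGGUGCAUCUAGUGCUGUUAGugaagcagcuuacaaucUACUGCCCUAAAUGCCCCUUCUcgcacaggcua
miR-20b: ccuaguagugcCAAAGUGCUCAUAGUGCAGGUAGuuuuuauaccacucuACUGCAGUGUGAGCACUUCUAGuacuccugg

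On mouse build GRCm38 (mm10, the build in the submitters' processing notes), miR-106b (chr5:138165737-138165818) and miR-93 (chr5:138165523-138165610) lie on the minus strand within Mcm7, which encodes a subunit of the replicative helicase. By GENCODE vM21 miR-106b is intronic, and miR-93 is intronic in the coding transcripts but overlaps an exon of a retained-intron transcript. With miR-25, the 3 hairpins of this cluster span 498 bases. miR-106a (chrX:52742503-52742567), miR-18b (chrX:52742331-52742413) and miR-20b (chrX:52742113-52742192) also lie on the minus strand, within 455 bases. There miR-106a overlaps exons of the non-coding gene Kis2, and no other annotated gene overlaps miR-18b or miR-20b.

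Library totals were 1326638 and 1117435 counts in the induced AGO1 line, 736895 and 292895 in the uninduced line, 359099 and 163467 in the knockout lines, and 949620 and 1115712 in wild type. Values are given in CPM (counts normalized to library size) after scaling by library totals and TMM factors. They are relative to the other miRNAs, so a shift shared by all of them leaves no trace, and fewer expressing cells cannot be told apart from less RNA per cell. The pluripotency markers miR-290 to miR-295 and miR-302 to miR-367 held 18.4 to 23.5% of counts in every library, and miR-122-5p (liver), miR-223-3p (myeloid cells), miR-214-3p (fibroblasts), miR-219a-5p (oligodendrocytes), miR-1a-3p and miR-206-3p (muscle) were at 0 in all 8. The other muscle marker, miR-133a-3p, reached at most 6.61 CPM in any library. The 3 neural markers summed to 323 to 337 CPM in the induced line, 382 to 539 in the uninduced line, 382 to 387 in the knockout and 458 to 539.9 in wild type. The AGO2-slicer product miR-451a also had no count in any library, so it gives no check of the genotype, which rests on the labels. Summed levels of 2 marker lists moved with the groups. The 5 fibroblast or feeder markers summed to 1853 to 2031 CPM in the induced line and 321 to 374 in the uninduced line. Their sum was 407 to 462 CPM in the knockout and 3192 to 3748 in wild type. The 4 blood markers summed to 3709.6 to 3871 CPM in the induced line and 6209.9 to 6716 in the uninduced line. Their sum was 5715 to 6389 CPM in the knockout and 1834 to 1881 in wild type. The part of these cell types in the results was not tested.

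The knockout lines were set against the wild type line. Loss of AGO2 cannot be told apart here from other differences between these lines. All 5 of the 5p arms, miR-106b-3p and miR-18b-3p were lower in the knockout, while the scarce arms miR-93-3p and miR-20b-3p were higher. All 9 miRNAs passed the abundance filter. With a call at an edgeR adjusted p under 0.05, 7 of them fell and 2 rose, so all 9 were called, against 57.7% of the 475 miRNAs tested (32.2% lower and 25.5% higher). None of the 9 overlapped between the groups, as was true of 77.3% of all tested. Their median log2 fold change was -1.06, and that of all tested miRNAs was -0.12. Without TMM factors the median of all tested miRNAs moved to 0.16, the split of all calls from 121 higher and 153 lower to 155 higher and 111 lower, and that of the 9 to 2 higher and 5 lower, with no change of sign among the 9.

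mmu-miR-93-5p, the most abundant of the 9 and rank 34 of all miRNAs by mean level, stood at 2934 and 2737 CPM in knockout 1 and 2, and at 6007 and 5348 CPM in wild type A and B. Both knockout values were below both wild type values. The fall was 2.00-fold, a log2 change of -1.0 ± 0.18 (SE; edgeR adjusted p = 0.00133). mmu-miR-106b-5p, known in human cells for repressing CDKN1A and E2F1, measured 309 and 362 CPM in the knockout lines against 863 and 703 CPM in wild type. Again the groups were apart, with a log2 change of -1.23 ± 0.23 (edgeR adjusted p = 0.00162). Its partner miR-106b-3p was at 129.7 and 171 CPM in the knockout lines and at 537 and 413 CPM in wild type. It fell 3.20-fold, by 1.68 ± 0.27 in log2 (edgeR adjusted p = 0.000745).

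**Figure D1:**
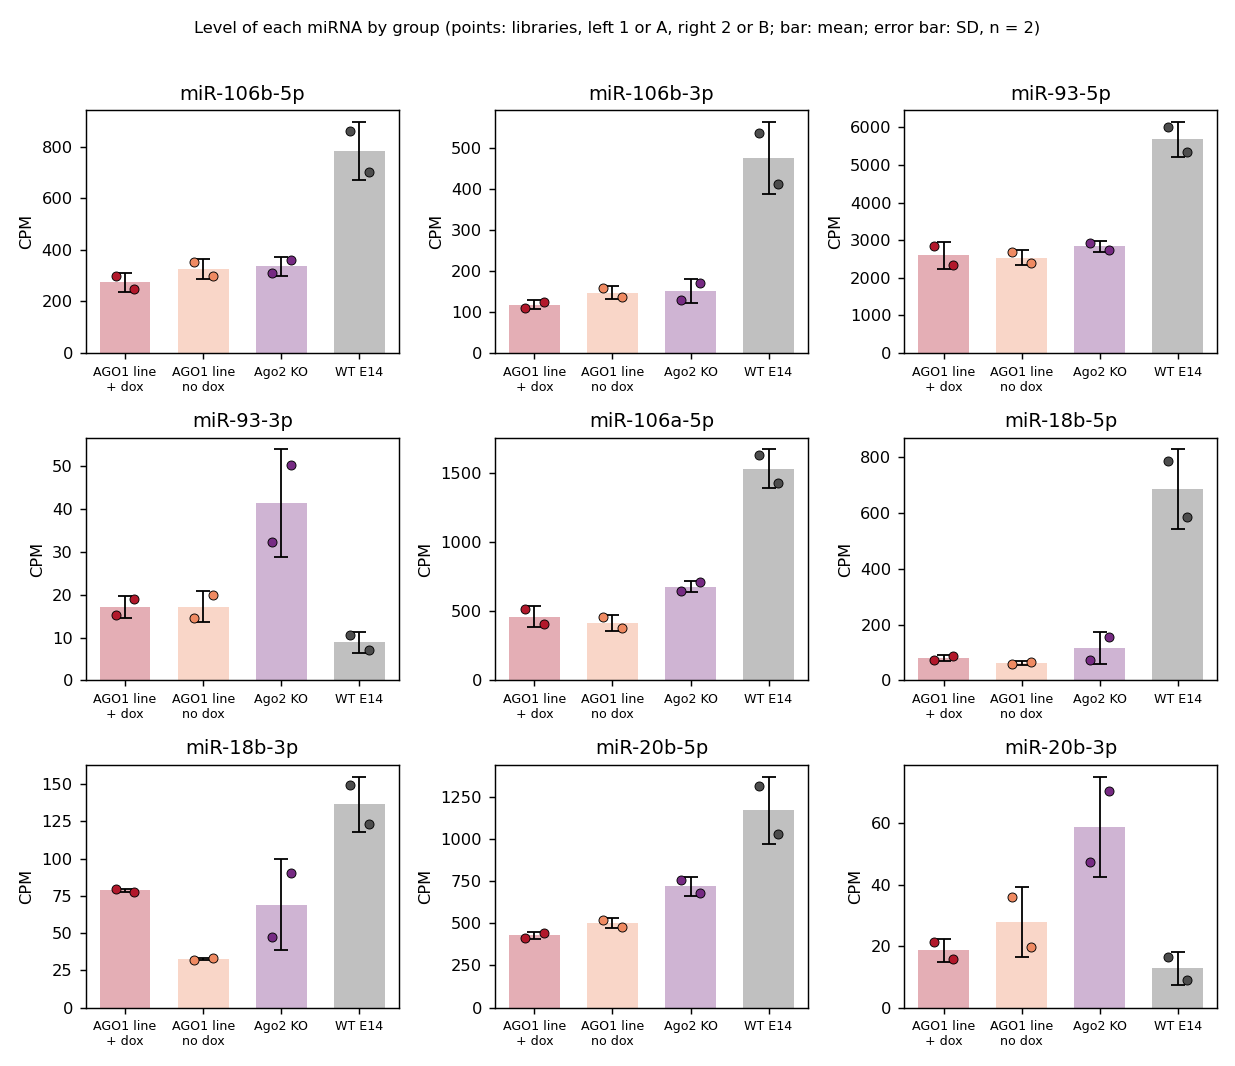
Level of each of the 9 miRNAs in CPM (linear axes from 0) in the induced AGO1 line, the uninduced AGO1 line, the Ago2 knockout lines and wild type E14. Points are libraries, bars are means and error bars are SD (n = 2); wild type is highest in 7 panels, and the knockout in those of miR-93-3p and miR-20b-3p.

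Of the 5 miR-106a-363 products followed, mmu-miR-18b-5p fell the furthest. It measured 74.8 and 156 CPM in knockout 1 and 2, from 30 and 31 counts, and 787 and 585 CPM in wild type A and B. The 2 knockout libraries differed from each other, on few counts, and both lay far below wild type. The log2 change was -2.63 ± 0.35, or 6.20-fold lower (edgeR adjusted p = 0.00018). In human melanoma cells miR-18b is known for repressing MDM2, the inhibitor of p53. mmu-miR-106a-5p, known in human colon cancer cells for repressing RB1, was at 651 and 709 CPM in the knockout lines and at 1633 and 1432 CPM in wild type. It fell by 1.17 ± 0.21 in log2 (edgeR adjusted p = 0.00122).

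mmu-miR-20b-5p, known in human breast cancer cells for repressing HIF1A and VEGFA, changed least. It had 758 and 679 CPM in the knockout lines and 1309.9 and 1029.9 CPM in wild type, groups that did not overlap. Its log2 change was -0.70 ± 0.20 (edgeR adjusted p = 0.0145). It was no longer called without wild type A (log2 change -0.34, edgeR adjusted p = 0.276), without TMM factors (-0.39, edgeR adjusted p = 0.0709), with only the 2 groups in the fit (-0.54, edgeR adjusted p = 0.0643), and when miR-20a-5p and miR-20b-5p were summed (-0.11, edgeR adjusted p = 0.654).

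The 3p arms of this set are scarce strands except for miR-106b-3p and miR-18b-3p. miR-93-3p rose to 32.4 and 50.3 CPM in the knockout lines, from 13 and 10 counts, against 10.7 and 7.20 CPM in wild type, from 9 and 8 counts. The rise of 2.15 ± 0.50 in log2 (edgeR adjusted p = 0.00538) thus rests on few counts. miR-20b-3p had 47.4 and 70.4 CPM in the knockout lines, from 19 and 14 counts, and 16.6 and 8.99 CPM in wild type, from 14 and 10 counts. Its log2 change was 2.17 ± 0.50 (edgeR adjusted p = 0.00478), and 2.81 without wild type A. Neither arm's groups overlapped.

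miR-18b-3p went the other way, with 47.4 and 90.5 CPM in the knockout lines and 149.5 and 123 CPM in wild type, a log2 change of -1.06 ± 0.35 (edgeR adjusted p = 0.0272). It was no longer called when wild type A was left out (-0.73, edgeR adjusted p = 0.183), without knockout 1 (-0.58, edgeR adjusted p = 0.274), without TMM factors (-0.74, edgeR adjusted p = 0.0956), with only the 2 groups in the fit (-0.87, edgeR adjusted p = 0.153), and by the DESeq2 Wald test (-0.96, DESeq2 adjusted p = 0.0892).

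**Figure D2:**
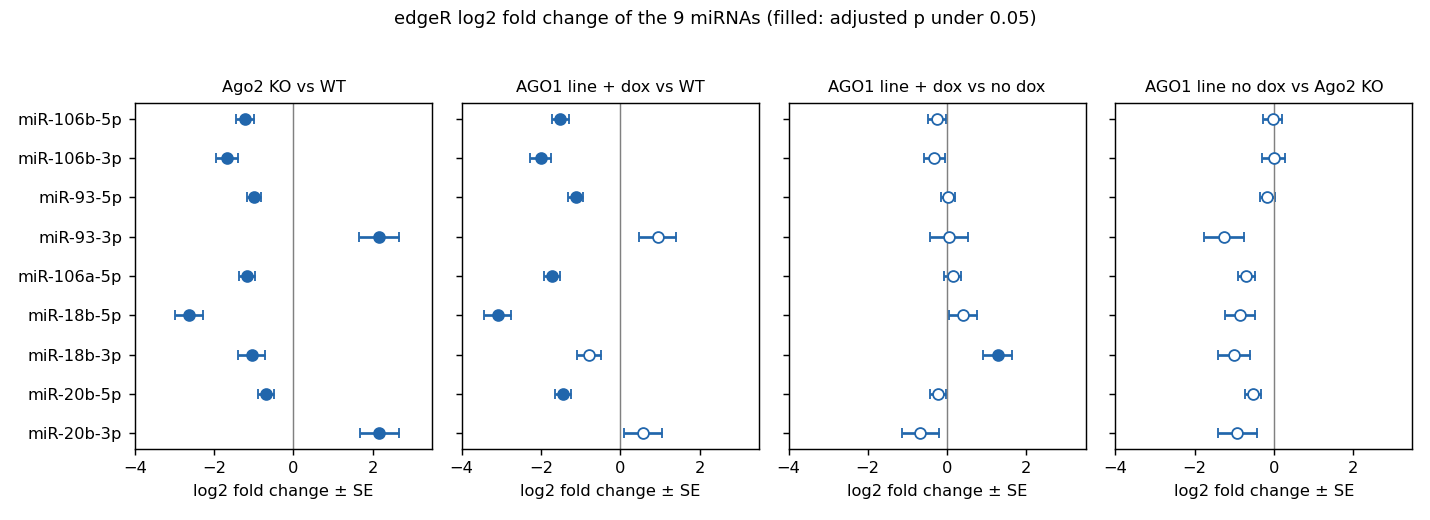
edgeR log2 change (x axis) with SE for each of the 9 miRNAs in 4 comparisons; filled points have an adjusted p under 0.05. In the knockout against wild type all 9 points are filled, 7 to the left of 0 and 2 to the right; in the uninduced AGO1 line against the knockout none is filled.

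The ratio of the 5p to the 3p arm within a hairpin needs no scaling between libraries, and was tested over the 135 hairpins whose arms both passed the filter. In the knockout 3 of the 4 hairpins had shifted toward the 3p arm, miR-93, miR-20b and miR-18b, where 41.5% of all hairpins were called, 21.5% toward 3p and 20% toward 5p. The median change over all hairpins was 0.01 in log2. miR-93 gave its 3p arm 1.09% and 1.81% of its counts in knockout 1 and 2, against 0.177% and 0.134% in wild type A and B. The ratio fell 8.81-fold, a log2 change of -3.14 ± 0.45 (edgeR adjusted p = 0.000134), the fifth largest of the 135 by size.

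For miR-20b the 3p share was 5.88% and 9.40% in the knockout lines and 1.25% and 0.866% in wild type. The change of the ratio was -2.85 ± 0.43 in log2 (edgeR adjusted p = 0.000153). miR-18b, with the most even arms of the 3 that shifted, had 38.8% and 36.7% of its counts on the 3p arm in the knockout lines and 15.97% and 17.4% in wild type. The change was -1.60 ± 0.34 (edgeR adjusted p = 0.00167). All 3 hairpins remained called with each library left out, by DESeq2 and with only the 2 groups in the fit. The arms that gained, miR-93-3p and miR-20b-3p, both begin with A and their 5p partners with C, whereas both arms of miR-18b begin with U. For miR-106b, which was not called, the 5p arm begins with U and the 3p arm with C. A link between the first base and the shift was not tested.

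miR-106b was the exception. Its 3p arm held 29.5% and 32.1% of counts in the knockout lines and 38.4% and 37.0% in wild type, a change of the ratio of 0.45 ± 0.26 in log2 that did not pass the test (edgeR adjusted p = 0.193). For miR-106a the 3p arm was too scarce to test, with 2 and 0 counts in the knockout lines and 4 and 9 in wild type. At a depth of 163467 counts a count of 0 allows up to 15.1 CPM.

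**Figure D3:**
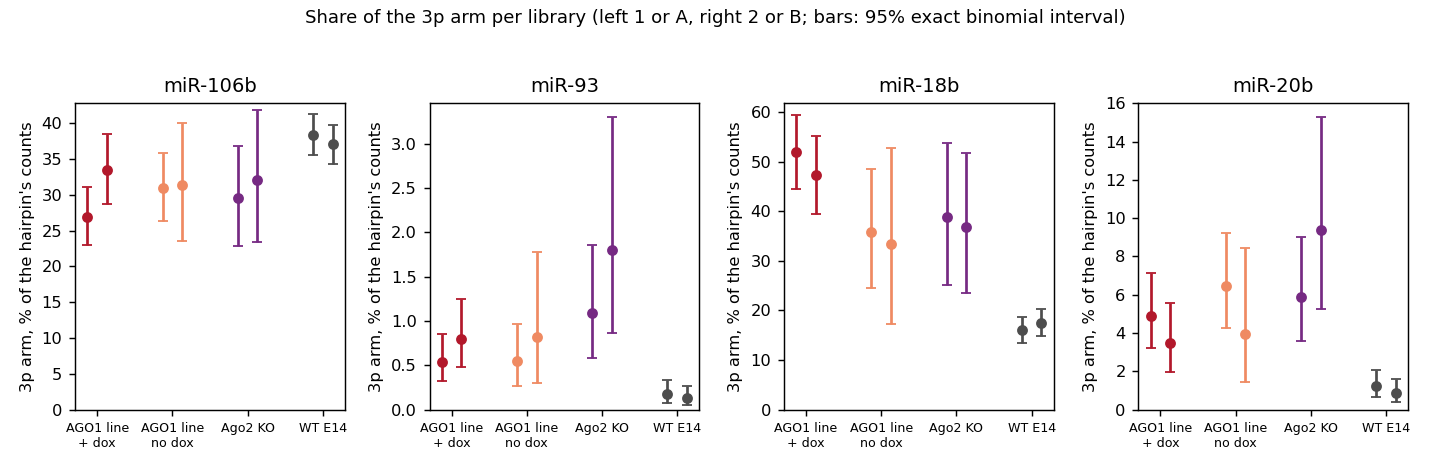
Share of each hairpin's counts on its 3p arm, in percent, per library, with 95% exact binomial (Clopper-Pearson) intervals that cover counting error only. The y axes differ between panels; wild type is lowest for miR-93, miR-18b and miR-20b and highest for miR-106b.

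Neighbouring products of the same clusters did not all follow. Of 9 listed cluster mates 8 were tested, and in the knockout 2 rose, 1 fell and 5 were not called. miR-25-3p, from the same cluster within Mcm7 as miR-93 and miR-106b but with another seed, was at 19075 and 14468 CPM in the knockout lines and at 18430.3 and 17149 CPM in wild type, overlapping groups with a log2 change of -0.08 ± 0.18 (edgeR adjusted p = 0.694). Counts of miR-93-5p per count of miR-25-3p were 0.154 and 0.189 in the knockout lines and 0.326 and 0.312 in wild type. The scarcer arm of that hairpin, miR-25-5p, rose by 3.27 ± 0.37 (edgeR adjusted p = 7.77e-05). It was at 679 and 1082 CPM in the knockout lines and at 125 and 58.5 CPM in wild type. In the X-linked cluster miR-363-3p, which shares the seed of miR-25-3p, fell by 3.07 ± 0.33 in log2 (edgeR adjusted p = 4.61e-05), to 554 and 262 CPM in the knockout lines against 3939 and 3015 CPM in wild type. miR-19b-3p (0.13 ± 0.22) and miR-92a-3p (0.21 ± 0.17), which also have a gene in miR-17-92, were not called (edgeR adjusted p = 0.617 and 0.301). The differences between products of a cluster were not tested.

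Among the 10 listed products of the miR-17-92 cluster 9 were tested, and 4 rose, 2 fell and 3 were not called. Those that rose were miR-17-3p (log2 change 0.91), miR-19a-5p (2.45), miR-19b-1-5p (4.02) and miR-92a-1-5p (2.43). Of these miR-92a-1-5p was abundant, at 15165 and 21863 CPM in the knockout lines and at 4439 and 2456 CPM in wild type. miR-17-5p fell by 0.95 ± 0.20 in log2 (edgeR adjusted p = 0.00268) and miR-18a-5p by 1.89 ± 0.23 (edgeR adjusted p = 9.83e-05), the same direction as miR-106a-5p and miR-18b-5p. miR-20a-5p was at 1365 and 1409 CPM in the knockout lines and at 1276 and 939 CPM in wild type, with a log2 change of 0.32 ± 0.21 (edgeR adjusted p = 0.197). Per count of miR-20a-5p there were 0.556 and 0.482 counts of miR-20b-5p in the knockout lines, against 1.03 and 1.10 in wild type.

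**Figure D4:**
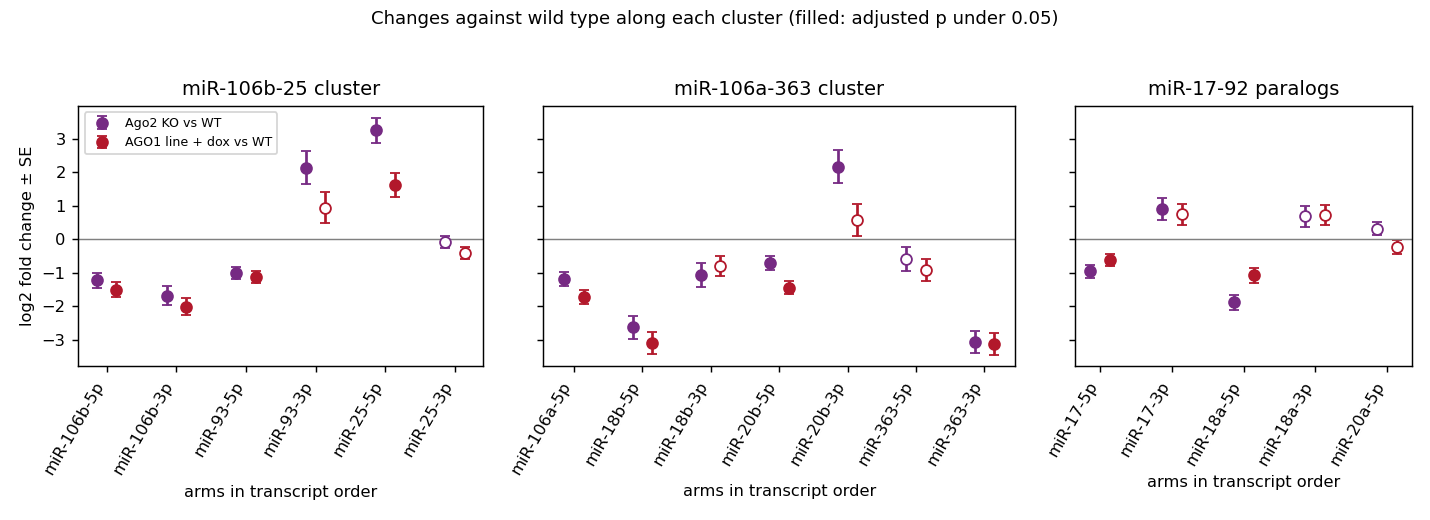
edgeR log2 change with SE (y axis) against wild type for the knockout and the induced AGO1 line, with arms in the order of each transcript (x axis). Filled points have an adjusted p under 0.05. Arms of miR-19a, miR-19b and miR-92a are not shown. Among the abundant arms shown, miR-93-5p and miR-17-5p lie below 0, and miR-25-3p and miR-20a-5p lie closer to it.

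The induced and the uninduced AGO1 line differ in doxycycline, and thus by design in AGO1, in cells without AGO2. None of the 5p arms was called by edgeR between them, nor at an unadjusted p under 0.05, nor by DESeq2. Of the 9 miRNAs 1 rose, miR-18b-3p, 0 fell and 8 were not called by edgeR, where 28.8% of all 475 miRNAs were called, 21.1% higher and 7.79% lower. In counts these were 100 higher and 37 lower, or 83 and 64 without TMM factors, which moved the median log2 change of all tested miRNAs from 0.03 to -0.17. miR-18b-3p was at 79.5 and 77.7 CPM in the induced libraries A and B, and at 31.9 and 33.1 CPM in the uninduced ones, from 24 and 10 counts. Both induced values were above both uninduced ones, a separation seen for 72.4% of all tested, with a log2 change of 1.28 ± 0.36 (edgeR adjusted p = 0.0247). The call was lost without TMM factors (1.07, edgeR adjusted p = 0.0501), by the DESeq2 Wald test (1.21, DESeq2 adjusted p = 0.0615) and without uninduced A (edgeR adjusted p = 0.124), uninduced B (0.128), induced A (0.0972) or induced B (0.113).

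miR-93-5p had 2847 and 2349 CPM in the induced libraries and 2677 and 2401 CPM in the uninduced ones, a log2 change of 0.03 ± 0.18 (edgeR adjusted p = 0.926). miR-18b-5p had 73.6 and 86.7 CPM in the induced and 57.2 and 66.1 CPM in the uninduced libraries (0.39 ± 0.35, edgeR adjusted p = 0.425). The other 5p arms had log2 changes of -0.25 to 0.14, each with an SE of 0.20 to 0.23. By contrast miR-18a-5p, which differs from miR-18b-5p at 2 bases, was at 346 and 302 CPM in the induced libraries and at 145 and 126 CPM in the uninduced ones, and rose by 1.25 ± 0.22 (edgeR adjusted p = 0.00275). Counts of miR-18b-5p per count of miR-18a-5p were 0.212 and 0.287 in the induced libraries, 0.394 and 0.526 in the uninduced ones, 0.405 and 0.838 in the knockout lines and 1.07 and 0.918 in wild type. The difference between the responses of these paralogs was not tested. With miR-18a-5p and miR-18b-5p summed the rise was 1.04 (edgeR adjusted p = 0.00718).

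The scarce arm miR-93-3p had 15.4 and 18.9 CPM in the induced and 14.6 and 19.8 CPM in the uninduced libraries (0.06 ± 0.48, edgeR adjusted p = 0.958). miR-20b-3p had 21.4 and 15.9 CPM in the induced and 35.9 and 19.8 CPM in the uninduced libraries (-0.67 ± 0.46, edgeR adjusted p = 0.303). Both overlapped between the groups. Of the 4 hairpins 0 passed the test of the arm ratio on induction by edgeR or DESeq2 (1 at an unadjusted p under 0.05), where 5.93% of all hairpins did (3.7% toward 3p and 2.22% toward 5p). The largest of the 4 values was that of miR-18b, whose 3p arm held 52.0% and 47.3% of counts in the induced libraries and 35.8% and 33.3% in the uninduced ones (log2 change of the ratio -0.87 ± 0.35, edgeR adjusted p = 0.14). In the induced line the arms of miR-18b were thus close to equal, with 86 and 87 counts of 5p and 93 and 78 of 3p.

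The uninduced AGO1 line was set against the knockout lines, from which it differs in carrying the inducible AGO1 and in puromycin. These cannot be told apart here, nor from other differences between the lines. None of the 9 was called by edgeR or DESeq2, and DESeq2 gave no adjusted p for miR-93-3p and miR-20b-3p. By edgeR 5 of the 9 had an unadjusted p under 0.05, all lower. Of all 475 miRNAs 0% were called by edgeR (72 at an unadjusted p under 0.05), and DESeq2 called 8. miR-106b-5p was at 354 and 298 CPM in the uninduced libraries and 309 and 362 CPM in the knockout lines, and miR-106b-3p at 158 and 136 against 129.7 and 171 CPM. These groups overlapped, and the log2 changes were -0.03 ± 0.23 and 0.00 ± 0.28 (edgeR adjusted p = 0.987 and 1).

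For all 5 X-linked products the uninduced values lay below those of both knockout lines, such as 459 and 377 CPM of miR-106a-5p in the uninduced libraries against 651 and 709 CPM in the knockout lines (log2 change -0.69 ± 0.21, edgeR adjusted p = 0.206). Groups did not overlap for 44.6% of all tested miRNAs. Both arms of miR-93 were likewise below both knockout lines. miR-93-3p was at 14.6 and 19.8 CPM in the uninduced libraries and at 32.4 and 50.3 CPM in the knockout lines (-1.25 ± 0.51, edgeR adjusted p = 0.277). The difference was small for miR-93-5p, at 2677 and 2401 against 2934 and 2737 CPM (-0.16 ± 0.18, edgeR adjusted p = 0.685). Without knockout 1, whose name the AGO1 line carries, miR-106a-5p (-0.75, edgeR adjusted p = 0.0363), miR-18b-5p (-1.36, edgeR adjusted p = 0.00902) and miR-18b-3p (-1.48, edgeR adjusted p = 0.043) were called lower, as were 26 of all miRNAs, with 35 higher. Without knockout 2 none of the 9 was called. The arm ratio was called for 0 of the 4 hairpins by edgeR or DESeq2 (1 at an unadjusted p under 0.05) and for 0.741% of all.

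Set against wild type, the induced AGO1 line still had low 5p arms: 6 of the 9 miRNAs fell, all 5 of the 5p arms and miR-106b-3p, 0 rose and 3 were not called, where 38.9% of all miRNAs were called (19.8% lower and 19.2% higher). All but miR-20b-3p had groups that did not overlap, as was true of 76% of all tested. This comparison shares its wild type libraries with that of the knockout. miR-18b-5p stood at 73.6 and 86.7 CPM in the induced libraries and at 787 and 585 CPM in wild type, 8.55-fold lower (log2 change -3.10 ± 0.33, edgeR adjusted p = 0.000149). miR-106a-5p was at 516 and 409.6 CPM in the induced libraries and at 1633 and 1432 CPM in wild type, 3.31-fold lower (edgeR adjusted p = 0.00033). miR-20b-5p was at 415 and 444 CPM in the induced libraries, below the 1309.9 and 1029.9 CPM of wild type by 2.72-fold (edgeR adjusted p = 0.000643). Summed with miR-17-5p, miR-20a-5p or miR-18a-5p, these changes became -0.99, -0.72 and -1.75 for the pairs of miR-106a-5p, miR-20b-5p and miR-18b-5p, against -1.73, -1.44 and -3.10 alone, and all 3 were still called.

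miR-106b-5p had 300.2 and 249 CPM in the induced libraries and 863 and 703 CPM in wild type (log2 change -1.51 ± 0.22, edgeR adjusted p = 0.000936), and miR-106b-3p had 110.3 and 126 against 537 and 413 CPM (-2.01 ± 0.26, edgeR adjusted p = 0.000433). miR-93-5p fell by 1.13 ± 0.18 in log2 (edgeR adjusted p = 0.00129), a call lost without induced B (-0.87, edgeR adjusted p = 0.0521). The scarce arms were not called. miR-93-3p had 15.4 and 18.9 CPM in the induced libraries and 10.7 and 7.20 CPM in wild type (0.95 ± 0.47, edgeR adjusted p = 0.126), and miR-20b-3p 21.4 and 15.9 against 16.6 and 8.99 CPM (0.58 ± 0.48, edgeR adjusted p = 0.353, and 1.22 without wild type A). miR-18b-3p had 79.5 and 77.7 CPM in the induced libraries and 149.5 and 123 CPM in wild type (-0.79 ± 0.31, edgeR adjusted p = 0.0635), and was called only with the 2 groups alone in the fit (-0.72, edgeR adjusted p = 0.0242).

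The arm ratios of miR-93 (-2.08 ± 0.40, edgeR adjusted p = 0.00101), miR-20b (-2.03 ± 0.41, edgeR adjusted p = 0.00124) and miR-18b (-2.30 ± 0.26, edgeR adjusted p = 1.61e-05) were again shifted toward 3p in the induced line, with miR-106b at 0.49 ± 0.23 (edgeR adjusted p = 0.099). Of all hairpins 45.9% were called, 23.7% toward 3p and 22.2% toward 5p. The 3 remained called under every alternative run, which included each library left out and DESeq2.

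Summed over the seed, the AAAGUGC family held 6481 and 5527 CPM in the induced libraries, 6318 and 5601 in the uninduced ones, 7125 and 6836 in the knockout lines and 13249 and 11248 in wild type. All 6 libraries of Ago2 knockout background were below both wild type libraries. Within the family the share of miR-93-5p with miR-106b-5p was 48.6% and 47.0%, 48.0% and 48.2%, 45.5% and 45.3%, and 51.9% and 53.8% in the same order of groups. That of miR-106a-5p with miR-20b-5p was 14.4% and 15.5%, 15.5% and 15.3%, 19.8% and 20.3%, and 22.2% and 21.9%, and miR-17-5p with miR-20a-5p made up the rest. The seed of miR-18, AAGGUGC, summed to 420.0 and 389 CPM in the induced, 202 and 192 in the uninduced, 259 and 342 in the knockout and 1519.9 and 1222 in wild type libraries.

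The hexamer AAGUGC also occupies bases 2 to 7 of the pluripotency miRNAs miR-290a-3p, miR-291a-3p, miR-294-3p, miR-291b-3p, miR-295-3p, miR-302b-3p and miR-302d-3p, one base earlier than in the miR-17 seed. Together these miRNAs held 18.7% and 16.7% of counts in the induced libraries and 17.4% and 15.7% in the uninduced ones. Their share was 20.04% and 18.8% in the knockout lines and 18.1% and 16.6% in wild type. The pluripotency markers miR-292a-3p and miR-302a-3p were not found by this search, which covered only miRNAs with a matched sequence. This does not show that they lack the hexamer. The shares leave them out and may thus be too low. The AAAGUGC family took 0.496 to 1.18% of counts in any library, so it was the smaller source of this hexamer throughout. Sequences were matched for 1621 of the 1915 miRNAs, and miRNAs without a match are not in these sums.

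Outside the 3 clusters, the miRNAs whose levels ran closest to those of miR-93-5p over the 8 libraries were miR-27b-3p, miR-27a-3p and miR-151-3p. Their root mean square difference from it, on log2 CPM centred on each miRNA's own mean, was 0.16 to 0.19, against a median of 0.89 over the 449 compared. For miR-106a-5p, the most abundant of the X-linked miRNAs followed here, they were miR-27b-3p, let-7i-5p and miR-30a-5p. Their differences were 0.20 to 0.30 against a median of 1.07. miR-27b-3p was at 10282 and 8734 CPM in the induced, 9921 and 8396 in the uninduced, 14053 and 10967 in the knockout and 28134 and 22434 in wild type libraries. It was lower in all 6 libraries of Ago2 knockout background than in wild type. This follows from its choice by likeness to miR-93-5p and miR-106a-5p, and is no separate result.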

How the data were processed

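The deposited values are raw counts, 1 whole number for each mature miRNA and library. Bowtie and mm10 are named, without version, per the submitters' processing notes. No source used here gives trimming, mismatches, the miRNA release or the handling of reads matching several miRNAs. The table has 2 header lines that differ for 1 wild type column, and the first was used. Counts of 2 libraries of a group differed beyond sampling noise in every group (chi-square per degree of freedom 13.8 to 44.3), so none was merged.

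Computed here with R 4.3.3, edgeR 4.0.16 and DESeq2 1.42.0: filterByExpr kept 475 of 1915 miRNAs, TMM factors scaled library totals, and 1 quasi-likelihood fit of the 8 libraries in 4 groups (4 residual degrees of freedom, 2-sided F tests) gave 4 comparisons, each adjusted by Benjamini-Hochberg over the 475. The SE is the absolute log2 fold change over the square root of F, and is approximate. The arm ratio was fitted over 135 hairpins with the 2 arms of every library in separate columns, a library term, and the arm effect of each group tested. Both steps were tested on simulated data.

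The 9 miRNAs and the lists of cluster mates, paralogs and markers were chosen with earlier results of these data known. All 9 are named, other miRNAs are named only from these lists or by seed, and the 3 most alike miRNAs were taken by root mean square difference of log2(CPM + 1). Intervals and floors (3 counts) show counting error alone: without molecular identifiers, reads of 1 molecule can be counted more than once. Coordinates and sequences are from RefSeq GRCm38.p6 and GENCODE vM21. Alternatives were DESeq2 size factors, no TMM factors, the DESeq2 Wald test, no filter, a filter at a mean CPM of 20, fits of 2 groups alone, a replicate block, near-identical paralogs summed and each library left out, and for the arm ratio a minimum of 50 counts per hairpin.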

Additional observations from a re-analysis of the deposited data

How the results depend on the processing

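The arm-ratio calls of miR-93, miR-20b and miR-18b against wild type held under every alternative run, as did the direction of all 9 miRNAs in both comparisons with wild type. Leaving out 1 library at a time gave 7 to 9 of the 9 called for the knockout against wild type, 5 to 6 for the induced line against wild type, 0 in each case for the induced against the uninduced line (1 with all libraries), and 0 to 3 for the uninduced line against the knockout. Over all miRNAs these counts were 195 to 274, 75 to 105 (185 with all libraries), 57 to 78 (137) and 0 to 61 (0), and over all hairpins on the arm ratio 43 to 56, 39 to 57 (62), 0 to 4 (8) and 0 to 2 (1). A lone remaining library is assumed to vary like the other groups.

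On induction, 0 of the 9 were called without TMM factors, 0 by the DESeq2 Wald test and 2 with paralogs summed, and the arm ratio was called for 25 hairpins with 2 groups alone in the fit. For the uninduced line against the knockout, 2 of all miRNAs were called without TMM factors, 8 by DESeq2 and 14 without the filter. The arm ratio there was called for 0 hairpins by DESeq2, 0 with 2 groups alone and 2 with at least 50 counts.

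The groups share replicate numbers, but no label says that a number marks a shared culture, batch or day, and 2 libraries a group are too few to show it. Deviations of same-numbered libraries correlated by 0.14 to 0.21 among the 3 groups of Ago2 knockout background and by -0.0072 to 0.15 between these and wild type, so a pairing was neither assumed nor excluded. With a replicate block 9 of the 9 were called for the knockout and 6 for the induced line against wild type, 1 on induction and 0 for the uninduced line against the knockout. Over all hairpins the block gave 16 on induction (8 without it), 2 for the uninduced line, and 59 and 64 against wild type.

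Reversals touched only values that were not called. On induction, miR-93-5p (0.03) became -0.040 with DESeq2 size factors, -0.17 without TMM factors and -0.042 by DESeq2, and miR-93-3p (0.06) became -0.014, -0.15 and -0.043. miR-106a-5p (0.14) became -0.065 without TMM factors, and the arm ratio of miR-93 (-0.04) became 0.015 with the replicate block. With 1 library left out, the log2 change on induction ranged from -0.20 to 0.25 for miR-93-5p, -0.089 to 0.25 for miR-93-3p, -0.14 to 0.43 for miR-106a-5p, -0.52 to 0.017 for miR-106b-5p and -1.09 to 0.052 for miR-20b-3p. The arm ratio ranged from -0.33 to 0.35 for miR-93 (0.24 without induced B), -0.061 to 0.73 for miR-20b and -0.16 to 0.29 for miR-106b. For the uninduced line against the knockout, the range was -0.32 to 0.25 for miR-106b-5p, -0.29 to 0.26 for miR-106b-3p, -0.40 to 0.082 for miR-93-5p and -0.10 to 0.069 for the arm ratio of miR-106b. The causes were not tested. Depth limits miR-93-3p, miR-20b-3p and the arms of miR-18b most, since the shallowest library holds 163467 counts.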
